A study of Homo sapiens with 11 samples.

Results

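Transcripts of 9 genes of epithelial cell junctions and apical-basal polarity (CGN, ANK3, MAL2, CLDN1, CDH1, TJP1, OCLN, F11R and EPCAM) were followed in RNA sequencing of 769-P cells. These are 9 of the 33080 genes in the deposited tables, found by symbol, and each matched 1 row. They were selected on measured values, the changes of CGN, ANK3, MAL2 and CLDN1 between the siRNA groups, with the results in view, so the values of these 4 genes are descriptive and carry no test in any comparison. The other 5 were added as relatives of those genes, and for them the adjusted p of the fit across all genes is given.

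The 769-P line is an established human clear-cell renal carcinoma line. All 11 libraries came from cells transfected for 48 h with RNAiMAX, a lipid reagent, and an siRNA labelled at 20 µM. Of these, n = 4 received a control siRNA (siSCR, genotype labelled wild-type), n = 3 received siRNA 1 against AKR1A1 (si1) and n = 4 received siRNA 2 against the same gene (si2). The labels give both siRNA groups the genotype AKR1A1-/-, although the cells were transfected with siRNA, so a transient knockdown of one cell line is what was measured. Nothing in the labels tells if the replicates of a group were grown apart, and the p-values therefore measure only a spread between samples that may be technical.

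Epithelial cells hold together through tight junctions near the apical surface and adherens junctions and desmosomes below them. Claudins, occludin (OCLN) and the junctional adhesion molecule JAM-A (F11R) span the membrane at tight junctions, and the scaffold ZO-1 (TJP1) and cingulin (CGN) lie on their cytoplasmic face. E-cadherin (CDH1) is the adhesion receptor of epithelial adherens junctions, EPCAM is an epithelial adhesion protein that interacts with claudins, ankyrin-G (ANK3) anchors proteins of the lateral membrane to spectrin, and MAL2 serves transport to the apical surface. Renal tubule cells carry these structures, and clear-cell carcinoma is known for low E-cadherin.

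Each library held 2108546 to 5939514 reads counted on genes. Values are normalized counts, the deposited log2 values undone, which put libraries on one scale. One control library stood apart: mitochondrially encoded transcripts took 12.1% of the reads of siSCR 1, against 3.46% to 4.46% in the other siSCR libraries, 6.57% to 11.1% in si1 and 4.59% to 5.12% in si2. Among the si1 libraries, si1 2 had reads on 11618 genes, against 13154 to 14355 in the other 10 libraries. AKR1A1, the aldo-keto reductase targeted, was at 272 ± 82.3 (SD, n = 4) in siSCR, 50.1 ± 29.4 (n = 3) in si1 and 45.8 ± 10.2 (n = 4) in si2, and was called lower with si1 (log2 difference -2.54, limma adjusted p = 0.0357) and with si2 (-2.53, limma adjusted p = 0.00218). The si1 call was lost in 8 of 16 other settings: with no filter, with the replicate number as a block (limma adjusted p = 0.154) and without any single library other than siSCR 1. The renal transcription factors PAX8, PAX2 and LHX1 and the kidney cadherin CDH6 were present in all groups. CA9, a carbonic anhydrase typical of clear-cell carcinoma, had 0 reads in all 11 libraries. All 5 endothelial markers, the leukocyte marker CD3E and the fibroblast markers COL1A2 and LUM were also at 0 reads. Other genes of those lists were present, CD68 at 33.1 to 112, COL1A1 at 12.3 to 58.4 and PDGFRB at up to 9.17. The summed leukocyte list ran from 57.0 to 112 (siSCR), 33.1 to 86.1 (si1) and 35.7 to 88.4 (si2), and the summed fibroblast list from 25.5 to 52.3, 12.3 to 30.5 and 38.9 to 61.0. Of 6 mesenchymal markers 4 had a mean of at least 10. VIM, the intermediate filament, averaged 9224 in siSCR, 8300.2 in si1 and 9256 in si2, and FN1, fibronectin, averaged 7783 in siSCR, 15186 in si1 and 8065 in si2. The summed mesenchymal list ran from 12569 to 30669 (siSCR), 20123 to 29302 (si1) and 16019.6 to 18937 (si2), and the part of these markers in the results was not tested.

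The upstream sequences of CGN, ANK3 and CLDN1 are shown because these genes moved together or in opposite directions with si1 (values follow), and because CLDN1 has a claudin neighbour on its other strand. Each line is the 250 bases before the first RefSeq start on GRCh38.p14, 5′ to 3′ on the strand of the gene: chr1:151511137-151511386 (+) for CGN, chr10:60733529-60733778 (-) for ANK3 and chr3:190322447-190322696 (-) for CLDN1. Capitals mark AACCGG, letters found in the site bound by grainyhead-like factors, which are regulators of epithelial junction genes.
CGN: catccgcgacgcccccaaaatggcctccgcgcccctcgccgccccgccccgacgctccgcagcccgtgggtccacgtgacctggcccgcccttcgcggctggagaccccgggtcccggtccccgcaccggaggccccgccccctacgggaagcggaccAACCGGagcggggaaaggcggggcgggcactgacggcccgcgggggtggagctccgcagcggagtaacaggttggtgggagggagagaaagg
ANK3: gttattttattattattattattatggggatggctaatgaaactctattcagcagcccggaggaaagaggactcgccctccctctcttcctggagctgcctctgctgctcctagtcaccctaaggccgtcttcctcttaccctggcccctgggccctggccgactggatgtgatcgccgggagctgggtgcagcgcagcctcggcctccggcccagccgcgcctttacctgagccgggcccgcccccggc
CLDN1: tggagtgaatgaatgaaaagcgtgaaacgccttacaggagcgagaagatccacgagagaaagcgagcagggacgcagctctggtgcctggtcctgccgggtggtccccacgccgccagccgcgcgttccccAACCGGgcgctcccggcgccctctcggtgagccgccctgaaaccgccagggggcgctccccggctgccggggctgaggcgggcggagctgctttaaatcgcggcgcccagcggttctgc
AACCGG or its reverse complement CCGGTT occurred 1 time in the CGN window, 1 time in the CLDN1 window and 1 time in 1 of the 2 OCLN windows. It was absent from the ANK3 window shown and from the windows of the other 3 RefSeq starts of ANK3. The CACCTG letters (reverse complement CAGGTG) of the E-box bound by the SNAI and ZEB repressors occurred in none of these windows, and were present in 1 of the 4 TJP1 windows and both OCLN windows. Of 35116 promoter windows of this length, 17.5% held CACCTG or CAGGTG and 5.99% held AACCGG or CCGGTT, both strands searched. The AACCGG letters were searched after the sequences had been seen, and a match is a description of the letters only. On GENCODE 29, the CGN window lies in an intron of 2 longer CGN transcripts. Facing CLDN1, the outermost annotated start of CLDN16 lies 66 bases from that of CLDN1 on the opposite strand, inside the window printed. Which CLDN16 start is used in these cells was not examined.

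In the si1 libraries, CGN, ANK3 and MAL2 were higher with si1 than with siSCR, by 4.22 times for ANK3 and 2.40 times for MAL2, and CLDN1 was 2.05 times lower. With si2, CGN, ANK3 and MAL2 overlapped the control range, CLDN1 lay above it, and F11R was the highest of the 3 groups. No difference of TJP1 passed the test, and CDH1, OCLN and EPCAM were at a few reads per library. Both siRNA groups were compared with the same siSCR libraries, so the 2 sets of differences share their controls. In bulk RNA, a change in the number of cells that express a gene cannot be told apart from a change in RNA per cell.

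**Figure D1:**
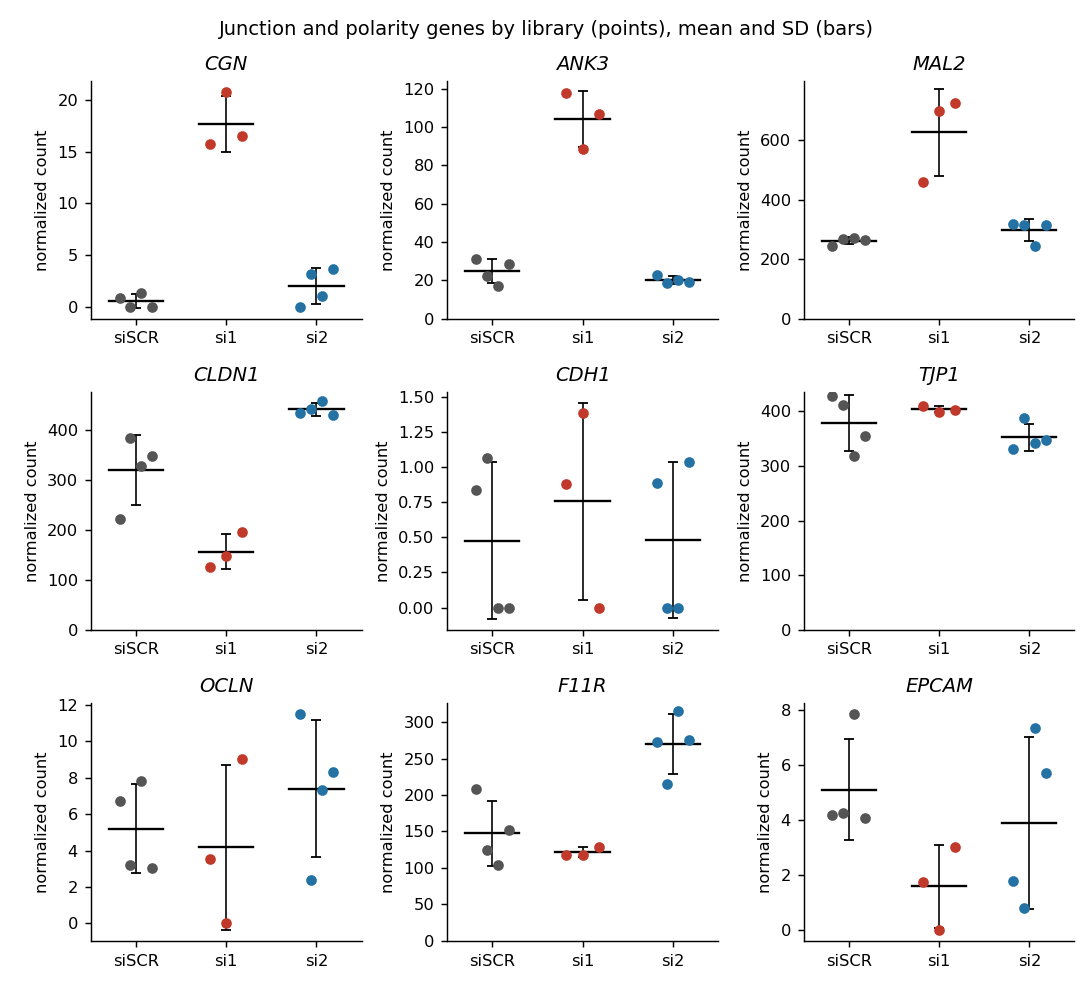
Normalized counts of the 9 junction and polarity genes (vertical axes, linear, a different range in each panel) in the siSCR, si1 and si2 libraries. Points are libraries, horizontal lines are group means and bars are SDs. The si1 points of CGN, ANK3 and MAL2 sit above every siSCR and si2 point, those of CLDN1 sit below all of them, and the si2 points of F11R sit above all the others.

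CLDN1 (claudin-1, ENSG00000163347, chr3:190305701-190322475 on the minus strand, GRCh38), a sealing claudin, had the highest level per kilobase of exon of the 9 genes in siSCR, 87.6 normalized counts per kb. Its normalized counts were 221.6, 384.6, 328.3 and 348.3 in siSCR 1 to 4, 125.6, 148.5 and 195.4 in si1 1 to 3, and 433.4, 442.2, 458.9 and 430.7 in si2 1 to 4. The 3 groups did not overlap, with si1 lowest and si2 highest, and the lowest control was siSCR 1. The log2 difference was -1.03 (SE 0.26) for si1 minus siSCR, 0.49 (SE 0.19) for si2 minus siSCR and 1.51 (SE 0.19) for si2 minus si1. Differences are on the log2(normalized count + 1) scale with SEs from limma. The si2 level was 2.82 times that of si1.

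F11R (ENSG00000158769, chr1:160995211-161021348, minus strand), the membrane protein JAM-A, was the member that stood out with si2. Its normalized counts were 208.2, 125.0, 104.6 and 151.7 in siSCR, 117.7, 118.0 and 129.2 in si1, and 272.4, 215.1, 315.1 and 275.8 in si2. Every si2 library was above every library of the other groups, and si1 lay within the range of siSCR. The si2 mean was 1.83 times that of siSCR, a log2 difference of 0.90 (SE 0.23, 95% interval 0.40 to 1.41) that missed the threshold (limma adjusted p = 0.0622). Against si1 it was 2.22 times higher, and this difference between the siRNAs was called (log2 difference 1.13, SE 0.19, limma adjusted p = 0.0171). That call was lost without si2 1, without si2 4, with no filter, with the replicate block and with the mitochondrial covariate (largest limma adjusted p = 0.132). The si1 minus siSCR difference was -0.23 (95% interval -0.81 to 0.36, limma adjusted p = 0.598). In the authors' deposited table the si2 against siSCR difference of F11R was 0.76 with an adjusted p of 0.00684. The highest control was siSCR 1, the library rich in mitochondrial reads, and without it the si2 difference against siSCR was called (limma adjusted p = 0.00765). Of the exon bases of F11R, 36.6% are shared with AL591806.3, a gene annotated on the same strand that had 0 reads, so F11R reads from the shared part may not have been counted.

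OCLN (ENSG00000197822, chr5:69492292-69558104, plus strand), the first membrane protein described at tight junctions, was at the edge of detection. Normalized counts were 6.72, 3.20, 7.85 and 3.06 in siSCR, 3.51, 0 and 9.02 in si1, and 11.5, 2.41, 7.35 and 8.29 in si2. The groups overlapped, and OCLN passed the filter (a normalized count of 10 or more, in a number of libraries equal to the size of the smaller group) in no comparison. From 20 reads in siSCR, 10 in si1 and 39 in si2, the ratio to siSCR was 0.767 for si1 (exact 95% interval of counting 0.321 to 1.72) and 1.44 for si2 (0.818 to 2.60). A difference was not detectable at this depth, and reads could also be split with a near-identical partial copy of the gene. Intervals of reads cover counting error only.

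TJP1 (ENSG00000104067, chr15:29699367-29968865, minus strand), the ZO-1 scaffold, was the steadiest member. Its normalized counts were 428.2, 412.4, 317.9 and 354.4 in siSCR, 409.2, 398.3 and 402.7 in si1, and 331.7, 388.4, 342.4 and 348.3 in si2. The siSCR libraries spanned both siRNA groups, and all si1 libraries lay above all si2 libraries. No difference passed the test: the log2 difference was 0.10 for si1 minus siSCR (95% interval -0.31 to 0.52, limma adjusted p = 0.753), -0.09 for si2 minus siSCR (-0.44 to 0.25, limma adjusted p = 0.799) and -0.20 for si2 minus si1 (-0.56 to 0.17, limma adjusted p = 0.475). Changes within these intervals remain possible.

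CGN (ENSG00000143375, chr1:151510510-151538692, plus strand), cingulin, links the tight junction plaque to actomyosin and microtubules. It had 1, 0, 1 and 0 reads in siSCR 1 to 4, 18, 15 and 11 in si1 1 to 3, and 0, 4, 1 and 7 in si2 1 to 4. In normalized counts these were 0.840, 0, 1.31 and 0 in siSCR, 15.8, 20.8 and 16.5 in si1, and 0, 3.21, 1.05 and 3.63 in si2. All si1 libraries were above all others, and si2 overlapped siSCR. Summed over libraries, 44 reads in si1 against 2 in siSCR gave a normalized ratio of 33.8, and 12 reads in si2 gave a ratio to siSCR of 4.42. The si1 to si2 ratio was 7.64. As CGN was selected for its change, these ratios are descriptions without a test. With 2 reads in siSCR, the ratios to siSCR are very imprecise. CGN passed the filter through the si1 libraries alone, and its fitted log2 difference of 3.70 (SE 0.34) for si1 minus siSCR depends on the added count of 1. With the exon length taken into account, its si1 level was 2.68 normalized counts per kb, below the 35.8 of TJP1 in the same libraries.

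CDH1 (ENSG00000039068, chr16:68737225-68835548, plus strand), E-cadherin, was close to absent. It had 2 reads in all siSCR libraries together, 2 in si1 and 3 in si2. The highest normalized count of any library was 1.39, in si1 2. EPCAM (ENSG00000119888, chr2:47345158-47387601, plus strand) was also low, at 4.20, 4.27, 7.85 and 4.07 in siSCR, 1.76, 0 and 3.01 in si1, and 1.77, 0.803, 7.35 and 5.70 in si2. All si1 values of EPCAM were below all siSCR values, and si2 overlapped both. The EPCAM ratio of si1 to siSCR was 0.323 (exact 95% interval of counting 0.0799 to 0.972), from 4 reads against 19. Neither gene passed the filter, so no test across libraries was made for them.

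ANK3 (ENSG00000151150, chr10:60026298-60733490, minus strand), ankyrin-G, is needed for the height of the lateral membrane in epithelial cells. Normalized counts were 31.1, 22.4, 17.0 and 28.5 in siSCR, 117.7, 88.8 and 106.7 in si1, and 23.0, 18.5, 20.0 and 19.2 in si2. The si1 libraries were far above the rest, and the si2 libraries lay inside the control range. The log2 difference was 2.06 (SE 0.25) for si1 minus siSCR, -0.25 (SE 0.20) for si2 minus siSCR and -2.31 (SE 0.18) for si2 minus si1. An antisense gene, AL592430.1, overlaps 3.24% of its exon bases and had 3 reads in all libraries together.

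MAL2 (ENSG00000147676, chr8:119165034-119245673, plus strand), a raft-associated membrane protein of apical transport, was among the more abundant members. Its normalized counts were 244.3, 267.1, 272.1 and 263.8 in siSCR, 459.3, 698.0 and 724.3 in si1, and 320.2, 313.8, 244.7 and 313.6 in si2. The si1 libraries were again above all others, with si1 1 the lowest of them, and si2 overlapped siSCR through si2 3. The log2 difference was 1.23 (SE 0.21) for si1 minus siSCR, 0.18 (SE 0.15) for si2 minus siSCR and -1.05 (SE 0.22) for si2 minus si1. Per kb of exon, MAL2 went from second place after CLDN1 in siSCR (76.3 normalized counts per kb) to first in si1 (183, against 42.7 for CLDN1) and was second again in si2 (86.9, against 120.5).

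In the order of levels per kb in siSCR, CLDN1 (87.6) and MAL2 (76.3) led, then TJP1 (33.6) and F11R (29.1), then EPCAM (2.02), then ANK3 (0.966) and OCLN (0.770), and last CGN (0.0812) and CDH1 (0.0772). CLDN1 and MAL2, TJP1 and F11R, ANK3 and OCLN, and CGN and CDH1 overlapped in their ranges over the siSCR libraries. In si1, ANK3 (4.08 per kb) and CGN (2.68) stood above EPCAM (0.630) and OCLN (0.618).

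**Figure D2:**
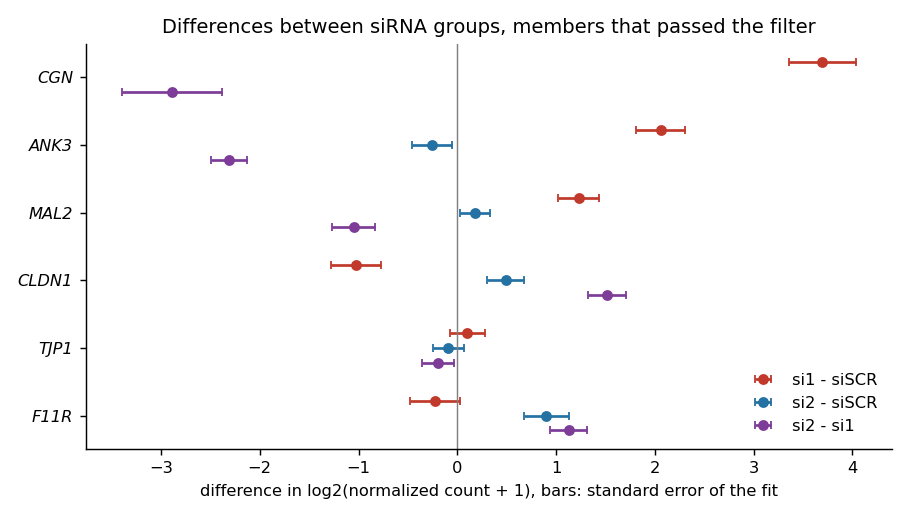
Log2 difference in normalized count between siRNA groups (horizontal axis, log2(normalized count + 1) scale) for the members that passed the filter on low values. Points are limma estimates and bars are 1 SE. CGN, ANK3 and MAL2 lie to the right for si1 minus siSCR, CLDN1 lies to the left at -1.03, and F11R lies to the right for both si2 differences.

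Of the members not selected for their changes, TJP1 and F11R passed the filter. With si1 against siSCR, 0 of these 2 were called by limma or limma-voom (0 at an unadjusted p under 0.05), where 1.72% of 10517 genes were called, 0.789% higher and 0.932% lower. With si2 against siSCR, 0 of 2 were called by limma, with F11R at an unadjusted p of 0.00262 and called by limma-voom, where 3.12% of 10249 genes were called (1.93% higher, 1.19% lower). Between si2 and si1, F11R was called higher in si2 and TJP1 was not called, and 6.74% of 10448 genes were called (3.71% higher, 3.02% lower). CDH1, OCLN and EPCAM passed the filter in no comparison and CGN in those with si1 only. With the replicate number as a block, a pairing that the labels do not state, 0 of 10517 genes were called with si1 against siSCR (2056 at an unadjusted p under 0.05). Without siSCR 1 the si1 comparison called 1399 genes, and leaving out any other library there gave 0 to 4. No fold change of a member changed sign under any of these settings, which for the 4 selected genes is a description only.

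The 4 selected genes were also set beside each other library by library. Over the 11 libraries, the Pearson correlation of log2 levels was 0.81 for CGN and ANK3, 0.88 for CGN and MAL2, 0.86 for ANK3 and MAL2 and -0.92 for ANK3 and CLDN1. These are descriptions, since the groups differ in all 4 genes and the libraries share depth and composition. Among 6929 genes with a mean normalized count of at least 50, the level most like that of CGN was that of YBX3 (r = 0.938), itself a Y-box protein that binds ZO-1 at tight junctions, at 907 ± 191 in siSCR, 1696 ± 53.9 in si1 and 1069 ± 107 in si2. Next to CGN came PIP4K2A (0.927), a phosphoinositide kinase, and MGLL (0.925), monoglyceride lipase. Most like ANK3 were TP53TG1 (0.955), THSD4 (0.950) and LAPTM4B (0.948), and most like MAL2 were LAPTM4B (0.948), ACBD6 (0.947) and MGLL (0.944). For CLDN1 they were BRI3BP (0.976), CAMTA1 (0.962) and GGCT (0.959). BRI3BP was at 202 ± 75.7 in siSCR, 67.6 ± 18.4 in si1 and 302 ± 45.5 in si2, the order of the groups seen for CLDN1.

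A wider list of 137 junction and polarity genes, without the 9, placed these changes among their relatives. All 137 matched a row and 118 had a read. With si1 against siSCR 1 of 88 tested was called (1.14%, lower), with si2 against siSCR 7 of 85 (8.24%, 5 higher and 2 lower), and between si2 and si1 5 of 87 (5.75%, 4 higher, DSC2 among them through the si2 libraries alone, and 1 lower in si2). Over all genes tested the shares were 1.72%, 3.12% and 6.74%. At an unadjusted p under 0.05 the list held 23 of 88, 21 of 85 and 25 of 87 genes. Over all genes tested these counts were 2516 of 10517, 2008 of 10249 and 2654 of 10448, to be set beside the unadjusted counts of each role below. In these fits the listed genes were thus called at close to the background share for si1 and between the siRNAs. With si2 they were above it there, but not with the replicate block. Their median log2 difference was 0.10 with si1 and 0.11 with si2, beside -0.03 and -0.01 over all genes tested. These counts rest on all the controls. Without siSCR 1 the list held 12 calls of 85 tested with si1 and 17 of 86 with si2. Over all genes these were 1399 of 10340 and 1496 of 10381. Without any other single library the list held 0 calls with si1 and 1 or 2 with si2. Over all genes these were 0 to 4 and 88 to 160. With the replicate block the si1 count was 0 in the list (19 at an unadjusted p under 0.05) and 0 over all genes. The si2 count was then 1 of 85, beside 175 of 10249 genes. The part of the mitochondrial share in these calls was tested only by adding it as a covariate. With it, 1 of 88 listed genes was called with si1 and 15 of 85 with si2. Over all genes 238 of 10517 and 1343 of 10249 were called.

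**Figure D3:**
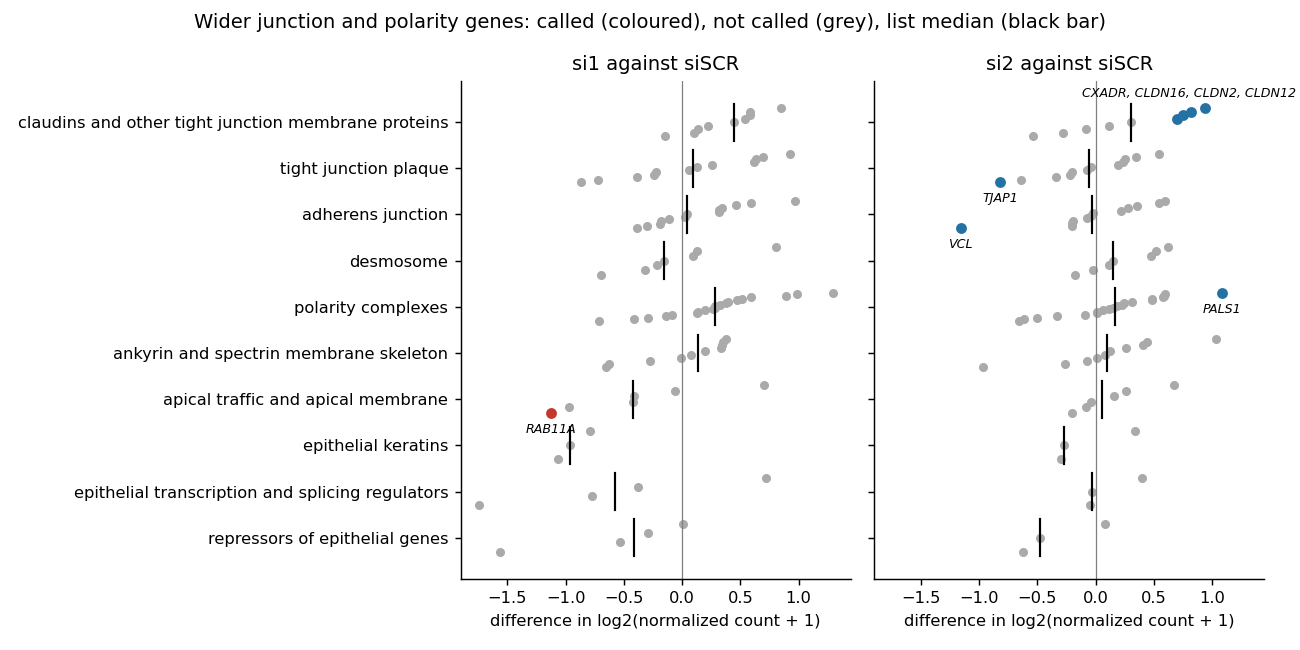
Log2 differences of the wider junction and polarity genes by role (rows) for si1 against siSCR (left) and si2 against siSCR (right). Each point is a gene, coloured and named where called and grey otherwise, and the black bar is the median of the list. With si2, 4 claudin-group genes and PALS1 were called higher and TJAP1 and VCL lower, and with si1 RAB11A was called lower.

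Several tight junction membrane proteins rose with si2: of 9 tested, 4 were called higher and none lower with si2 (list median 0.31), where 1.93% of all genes were called higher. None was called with si1 (3 at an unadjusted p under 0.05), although the list median was larger there (0.45, 8 of 9 positive). CLDN2, the cation-pore claudin of the proximal tubule and the most abundant of the 4, was at 1257, 1160.2, 959 and 1265 in siSCR, 1489, 1118 and 1229 in si1, and 2053, 2033, 2051 and 1988 in si2. All si2 libraries were above all others (log2 difference from siSCR 0.82, SE 0.15, limma adjusted p = 0.0216). CLDN16, the paracellular magnesium claudin with an annotated start opposite CLDN1, was at 190.6, 237.2, 198.8 and 223.0 in siSCR, 283.6, 219.3 and 387.7 in si1, and 329.9, 365.2, 335.0 and 397.6 in si2 (si2 minus siSCR 0.75, SE 0.15, limma adjusted p = 0.0282). In the si1 libraries CLDN16 did not go with CLDN1: its difference from siSCR was 0.45 (SE 0.23, limma adjusted p = 0.27), where CLDN1 was at -1.03. CLDN12 was at 28.4 ± 5.46 in siSCR, 35.0 ± 15.7 in si1 and 55.1 ± 6.20 in si2 (si2 minus siSCR 0.94, limma adjusted p = 0.0246). CXADR, the coxsackievirus and adenovirus receptor, was at 114 ± 13.3, 170.3 ± 1.01 and 185 ± 20.9 (si2 minus siSCR 0.70, limma adjusted p = 0.0453; si1 minus siSCR 0.58, limma adjusted p = 0.11). The calls of these 4 genes with si2 were each lost in 9 or 10 of 17 other settings, among them the leaving out of most single libraries other than siSCR 1. Between si2 and si1 none of the 9 was called. CXADR has processed copies in the genome, so its reads are less certain.

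On the plaque, 1 of 12 tested genes was called with si2 and 0 with si1 (3 at an unadjusted p under 0.05). Over all genes the shares called were 3.12% with si2 (1.19% lower) and 1.72% with si1. TJAP1, a tight junction-associated protein also found at the Golgi, fell from 59.3 ± 12.1 in siSCR to 33.0 ± 4.26 in si2 (log2 difference -0.82, SE 0.19, limma adjusted p = 0.0453), and was at 33.5 ± 13.6 in si1 (-0.87, SE 0.32, limma adjusted p = 0.155). In 11 of 17 other settings the si2 call of TJAP1 was lost, limma-voom among them.

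At the adherens junction, VCL, vinculin, which ties cadherin and integrin adhesions to actin, fell with si2. It was at 683.4, 635.6, 626.6 and 539.8 in siSCR, 553.2, 1102 and 746.9 in si1, and 278.6, 306.6, 288.8 and 238.4 in si2. The si2 libraries lay below all others, and si1 2 was the highest. The si2 minus siSCR difference of -1.16 (SE 0.15, limma adjusted p = 0.00639) kept its call in all 17 other settings run (adjusted p from 0.000616 to 0.0304). Against si1 the difference was -1.47 (SE 0.25, limma adjusted p = 0.0181), and with si1 VCL was at 0.31 from siSCR (limma adjusted p = 0.472). AP3M1, on the opposite strand, overlaps 11.1% of its exon bases and had 782 reads in all libraries together, and whether the counting used strand is not given in the sources used here. Among adherens genes, the other 11 tested with si2 were not called, where 3.12% of all genes were called.

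**Figure D4:**
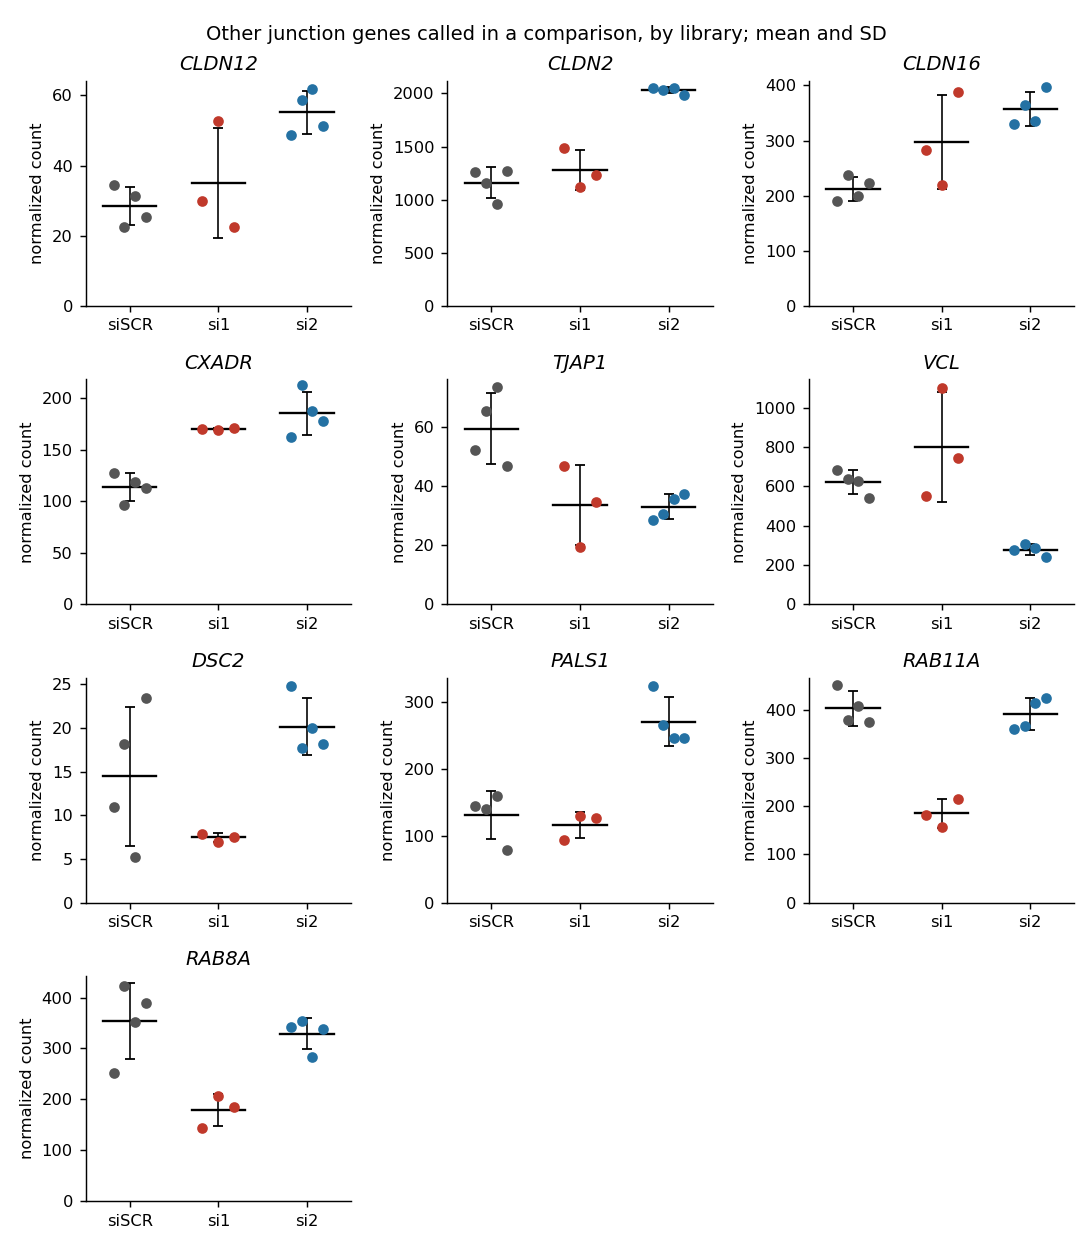
Normalized counts (vertical axes, linear, from 0) of the 10 genes of the wider list that were called in at least 1 of the 3 comparisons, by library. Points are libraries, lines are group means and bars are SDs. The si2 points of VCL sit below all others, from 238.4 to 306.6, and the si1 points of RAB11A sit below all others, from 156.8 to 214.9.

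Among polarity proteins 1 of 20 (5.00%) was called with si2, close to the 3.12% of all genes, and 0 with si1 (5 at an unadjusted p under 0.05). PALS1, the Crumbs complex scaffold, was at 145.2, 139.9, 159.6 and 79.4 in siSCR, 93.1, 129.1 and 126.2 in si1, and 324.6, 266.4, 246.8 and 247.2 in si2. All si2 libraries were above all others. The si2 difference was 1.08 from siSCR (SE 0.23, limma adjusted p = 0.0354) and 1.22 from si1 (SE 0.20, limma adjusted p = 0.0169). The call against siSCR was lost in 9 of 17 other settings. The list medians were 0.28 with si1 and 0.17 with si2, and 15 of 20 genes were positive in each.

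None of the 7 desmosome genes tested was called against siSCR with either siRNA, with 1 (si1) and 2 (si2) at an unadjusted p under 0.05. DSC2, a desmosomal cadherin, was at 7.45 ± 0.485 in si1 and 20.1 ± 3.24 in si2, a log2 difference of 1.31 (SE 0.18). All its si1 values were under the filter of 10, so it was tested between the siRNAs only through the si2 libraries, where it is high, and its call there is no support for a difference. In siSCR it ranged from 5.23 to 23.4 and overlapped both.

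The membrane skeleton partners of ANK3 showed no call among the 10 tested in either comparison with siSCR (1 with si1 and 2 with si2 at an unadjusted p under 0.05). SPTBN1, the spectrin beta chain that binds ankyrin-G in epithelia, was at 1604 ± 211 in siSCR, 1689 ± 226 in si1 and 1615 ± 219 in si2. EPB41L2, a protein 4.1 relative, was at 1125 ± 133, 1122 ± 223 and 933 ± 39.1.

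Apical transport, the process MAL2 serves, held the single call with si1, 1 of 6 tested. Over all genes 1.72% were called with si1, 0.932% lower. RAB11A, the recycling-endosome GTPase of apical delivery, was at 451.7, 378.2, 408.1 and 373.8 in siSCR, 182.7, 156.8 and 214.9 in si1, and 360.0, 366.8, 414.8 and 423.5 in si2. The si1 libraries lay below all others. The si1 minus siSCR difference was -1.13 (SE 0.19, limma adjusted p = 0.0357), and with the replicate block its limma adjusted p was 0.154. The call was lost in 8 of 16 other settings, among them each single library left out other than siSCR 1. Between the siRNAs RAB11A differed by 1.09 (SE 0.18, limma adjusted p = 0.0174). RAB8A, which acts with RAB11A, was at 354 ± 74.4 in siSCR, 178.5 ± 31.8 in si1 and 329 ± 31.0 in si2, called between the siRNAs (0.89, SE 0.19, limma adjusted p = 0.0341) but not with si1 against siSCR (-0.97, limma adjusted p = 0.074). That si1 difference was called in 4 of 16 other settings, all of which called more genes in general. An antisense gene, AC008894.2, overlaps 37.8% of the exon bases of RAB8A and had 3 reads. Leaving out si2 2 or si2 4 ended the calls between the siRNAs for RAB11A, RAB8A, PALS1 and VCL. The list median of the 6 tested was -0.42 with si1 and 0.06 with si2, so MAL2 (1.23) and its fellow apical genes did not move one way in si1.

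Of 4 keratins listed, 3 were tested, and none was called. In other settings, KRT18 was called with si1 in 5 of 16 and KRT8 in 1 of 16, all settings that called more genes in general. KRT18 was at 779 ± 72.0 in siSCR, 402 ± 72.9 in si1 and 647 ± 71.6 in si2 (si1 minus siSCR -0.97, limma adjusted p = 0.0564), and KRT8 at 531 ± 178, 294 ± 51.4 and 416.5 ± 88.8 (-0.79, limma adjusted p = 0.19). All 3 were negative with si1 and each had an unadjusted p under 0.05, as did 2516 of the 10517 genes tested. The summed keratin level ran from 724 to 781 in si1, 1025 to 1668 in siSCR and 1038 to 1332 in si2. Keratin reads can be shared with the many processed copies of KRT8 and KRT18.

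Regulators of the epithelial programme were not called in any comparison. ELF3, an epithelial ETS factor, was at 120.1 ± 16.9 in siSCR, 69.4 ± 5.44 in si1 and 117 ± 26.0 in si2 (si1 minus siSCR -0.77, limma adjusted p = 0.0706). Its si1 difference was called in 3 of 16 other settings, all of which called more genes in general. Among repressors of epithelial genes, ZEB1 was at 302 ± 24.1 in siSCR, 211 ± 44.1 in si1 and 217 ± 22.5 in si2 (-0.53, limma adjusted p = 0.159; -0.48, limma adjusted p = 0.122). TCF3, whose E proteins bind the same E-box, was at 419 ± 56.8, 339.9 ± 18.8 and 275 ± 56.2 (-0.29 and -0.62, limma adjusted p = 0.115 for si2). With si2 it was called in 2 of 17 other settings, both of which called more genes in general.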

How the data were processed

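Per the submitters' processing notes, reads were handled with cutadapt, FastQC, STAR, HTSeq and DESeq2 on GRCh38; their versions and the strandedness are not given in the sources used here. In 1 table per siRNA, with equal control columns, the authors deposited log2(RLE-normalized count + 1) for each library. Undone, 100% of values lay within 0.01 of a whole read, which gave the reads. Other deposited columns hold, per the file headers, a mean normalized signal (not used), log2 fold changes and p-values of the authors, used only where named. limma 3.58.1 in R 4.3.3 (empirical Bayes, no trend) compared 2 groups at a time on genes with a normalized count of 10 or more (in a number of libraries equal to the size of the smaller group), with Benjamini-Hochberg adjustment over all genes and calls under 0.05. The script was tested on simulated data.

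Members, lists and tests were chosen with earlier results of these data known. Named genes were the 9 members, AKR1A1, up to 4 called genes per role list (or the 2 highest), and 3 genes most correlated with each selected member. Deviations from group means correlated between same-numbered libraries at 0.407, 0.106 and 0.141 for si1 and siSCR. The labels state no pairing, and the calls given were made without it, the replicate block being an alternative only. For si1 and siSCR all values were over 0.1. For si2 and siSCR (-0.035 to 0.175) and for si1 and si2 (-0.00304 to 0.0994) not all were. These ranges overlap and differently numbered libraries were not compared, so whether the numbers pair samples is not settled. The 0.407 is of replicate 1, where mitochondrial transcripts took 12.1% of reads in siSCR 1 and 11.1% in si1 1. Alternatives were another scaling, no filter, pseudocounts of 0.5 and 5, limma-trend, one fit of all libraries, the block and single libraries left out. limma-voom on the reads and the mitochondrial share as a covariate were added after seeing the data. Gene positions are from GENCODE 29, and upstream sequences from RefSeq on GRCh38.p14, with an entry used for CGN, ANK3, CLDN1, TJP1 and OCLN. Values of some listed genes are not reported here.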

Additional observations from a re-analysis of the deposited data

Results flagged for a closer look

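In 56 gene and group sets of 4 libraries, 3 held a library far from the other 3, where chance gives about 1 in 20. MAL2 was at 244.7 in si2 3, against 313.6 to 320.2 in the other si2 libraries. EPCAM was at 7.85 in siSCR 3, against 4.07 to 4.27 in the other siSCR libraries, from 6 reads against 4 or 5. ZEB1, a repressor of epithelial genes, was at 183.8 in si2 3, against 223.8 to 231.7 in the other si2 libraries.

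The effects of the 2 siRNAs, which share their controls, differed for 5 named genes by limma on si2 against si1. Over all genes, 6.74% of 10448 were called in that comparison. F11R was higher in si2 by 1.13 on the log2 scale (limma adjusted p = 0.0171), PALS1 by 1.22 (0.0169), RAB11A by 1.09 (0.0174) and RAB8A by 0.89 (0.0341). VCL was lower in si2 by a log2 difference of -1.47 (0.0181). Each of these 5 calls was lost in 4 to 8 of 16 other settings, the replicate block among them. DSC2 was higher in si2 by 1.31, but it passed the filter on low values through the si2 libraries alone, so its call supports nothing. For 2 genes selected for their changes, all si1 libraries lay on one side of the siSCR mean and all si2 libraries on the other: ANK3, with a si2 minus si1 difference of -2.31, and CLDN1, with 1.51. Those differences were not tested.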

How the results depend on the processing

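The number of genes called depended on the setting. With si1 against siSCR, 181 genes were called in the report, 5 without a filter, 414 with a pseudocount of 5, 712 with limma-trend, 1112 with all 11 libraries in one fit, 582 with limma-voom and 0 with the replicate block, and 0 to 1399 with a library left out, 1399 being without siSCR 1. With si2 against siSCR, 320 became 108 without a filter, 482 with limma-trend, 175 with the replicate block, 1343 with the mitochondrial covariate and 88 to 1496 with a library left out, 1496 being without siSCR 1. Between si2 and si1, 704 became 230 without a filter, 1064 with limma-trend, 6 with the replicate block, 1172 with limma-voom, 167 with the mitochondrial covariate and 120 to 803 with a library left out. A pairing by replicate number is not stated in the labels and was assumed only in the replicate block, not in the calls of the report.

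In the wider junction list, the 1 call with si1 became 0 without a filter, 3 with a pseudocount of 5, 7 with limma-trend, 9 in one fit, 6 with limma-voom, 0 with the replicate block and 0 to 12 with a library left out. The 7 calls with si2 became 1 without a filter, 4 in one fit, 1 with the replicate block, 15 with the mitochondrial covariate and 1 to 17 with a library left out. The 5 between the siRNAs became 2 without a filter, 8 with a pseudocount of 5, 11 with limma-trend, 8 in one fit, 10 with limma-voom, 1 with the mitochondrial covariate, 0 with the replicate block and 1 to 8 with a library left out. The cause was not tested.

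Signs changed for uncalled differences only: with a library left out, CLDN12 with si1 ran from -0.11 (without si1 2) to 0.49, PALS1 with si1 from -0.36 to 0.010 (without si1 1), RAB11A with si2 from -0.081 to 0.014 (without siSCR 1), RAB8A with si2 from -0.24 to 0.013 (without siSCR 2) and ELF3 with si2 from -0.19 to 0.031 (without si2 4, and also above 0 without siSCR 3 or siSCR 4). Members kept their sign in every setting: CGN with si1 ran from 2.04 to 4.36, ANK3 from 1.90 to 2.18, MAL2 from 1.11 to 1.44 and CLDN1 from -1.20 to -0.83. These 4 were selected for such changes, and their si1 and siSCR libraries did not overlap. Leaving out a library could not turn their sign, so its being kept is no support. F11R with si2 ran from 0.75 to 1.08, called in 5 of 17 settings. Its call against si1 was lost in 5 of 16 (largest adjusted p 0.132). The planned edgeR and DESeq2 fits were not run. The deposited unit was log2, but whole reads were recovered and used for limma-voom, so such fits remained possible. Depth limits OCLN, EPCAM, CDH1 and CGN, whose groups hold from 2 to 44 reads, and 3 or 4 libraries a group limit the rest.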
